A study of Mus musculus with 15 samples.

Results

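Transcript levels of 8 immediate early genes were followed in cultures of mouse satellite cells, which are the stem cells that regenerate muscle fibres, after exposure to adenosine or adenosine monophosphate (AMP). The genes are the 4 FOS family members Fos, Fosb, Fosl1 and Fosl2, the 3 JUN family members Jun, Junb and Jund, and Egr1. They were taken by gene symbol, with earlier results of these data known, and each of the 8 was listed and passed the filter on low counts in both batches, out of 46078 genes listed in batch 1 and 13063 named genes in batch 2. The 15 libraries form 5 groups of 3. In batch 1, cells received 0.05 mM adenosine, and the control cells received DMSO, the vehicle. In batch 2, cells received 0.1 mM adenosine, 0.25 mM AMP or DMSO. All cells came from hindlimb muscle, were kept in F10 medium with horse serum and were harvested after 24 h of treatment; the strain C57BL/6J is labelled for batch 2, and no label gives the strain of batch 1 or the age of the mice. The dose of adenosine and the batch changed together, and adenosine and AMP were not given at the same dose. The libraries held 14683346 to 20799588 counts in batch 1 and 11107450 to 14201933 in batch 2. The labels leave unsaid whether replicate libraries had separate animals or cultures as their source; p-values therefore measure library-to-library spread, and this may be technical.

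FOS and JUN proteins are basic leucine zipper factors that pair to form AP-1, a dimer that binds DNA at TGANTCA and related sites. FOS proteins need a JUN partner, whereas JUN proteins can also pair with each other or with ATF proteins. EGR1 is a zinc finger factor that binds a GC-rich site. The genes of this group are called immediate early genes because serum or growth factors induce several of them, Fos and Egr1 above all, within minutes and without new protein synthesis, and that induction is usually brief. In satellite cells Fos, Jun and Egr1 transcripts are known to appear soon after muscle is injured or dissociated. A measurement at 24 h therefore reads the level that persists long after the compound was added, not the early pulse.

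The satellite cell identity of the cultures was checked first. Pax7, Myf5 and Myod1, which define satellite cells and myoblasts, were present in every library, and Myod1 averaged 582 ± 120 FPKM with adenosine and 1569 ± 99.9 FPKM with DMSO in batch 1 (SD, n = 3 per group). FPKM, as deposited by the authors, scales a gene's fragments by gene length and by the authors' own per-library scaling. In batch 1 that length matched the summed length of the gene's exons, which is 9680 bases for Fosl2, 2352 for Fos and 1707 for Fosl1. A summed exon length can exceed that of the transcript made, and this bears on levels compared between genes. FPKM is the level used here to compare genes with each other. Pax7 averaged 9.55 FPKM with adenosine and 10.7 FPKM with DMSO in batch 1, and 10.3 FPKM with adenosine, 12.3 FPKM with AMP and 8.03 FPKM with DMSO in batch 2. Sdc4, a surface proteoglycan of satellite cells, averaged 785 FPKM with adenosine and 547 FPKM with DMSO in batch 1. Of 9 satellite cell markers, 1 was called higher and 6 lower with 0.05 mM adenosine, 2 higher and 7 lower with 0.1 mM adenosine, and 2 higher and 5 lower with AMP. Myod1 and Sdc4 had the highest means of the 9 markers, except with DMSO in batch 2, where Des (433 FPKM) was above Sdc4 (419 FPKM). The 9 markers together summed to 1559 to 1965 FPKM with adenosine and 2833 to 3070 FPKM with DMSO in batch 1. In batch 2 they summed to 1158 to 1289 FPKM with adenosine, 1199 to 1522 FPKM with AMP and 2151 to 2464 FPKM with DMSO. Of 8 leukocyte markers, 7 were listed in batch 1 and 3 in batch 2, and they summed to 12.9 to 17.9 FPKM with adenosine against 4.84 to 5.41 FPKM with DMSO in batch 1. In batch 2 the leukocyte sum was 9.24 to 11.02 FPKM with adenosine, 9.54 to 12.7 FPKM with AMP and 2.54 to 3.71 FPKM with DMSO. Cd68 made up most of that sum in the treated libraries, while the pan-leukocyte gene Ptprc averaged 0.0309 FPKM with adenosine and 0.00122 FPKM with DMSO in batch 1, and Adgre1 and Csf1r were listed at 0 in all DMSO libraries of batch 1. Csf1r averaged 0.319 FPKM with adenosine, 0.423 FPKM with AMP and 0.0351 FPKM with DMSO in batch 2. Cd79a averaged 1.18 FPKM with adenosine and 0.201 FPKM with DMSO in batch 1. In each comparison 3 leukocyte markers were tested, with 2 called higher and 0 lower. Of all tested genes, 39.2%, 69.4% and 65.6% were called with 0.05 mM adenosine, 0.1 mM adenosine and AMP. Smooth muscle and pericyte markers, mostly Acta2, summed to 11.7 to 30.7 FPKM with adenosine against 128 to 333 FPKM with DMSO in batch 1, and to 10.8 to 23.7 FPKM with adenosine, 35.6 to 92.4 FPKM with AMP and 144 to 266 FPKM with DMSO in batch 2. The part of these marker shifts in the results on the FOS, JUN and EGR genes was not tested, and in such bulk samples fewer cells of a type and less RNA per cell cannot be told apart.

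The 8 genes did not move as a block. Fos, Fosb, Fosl1 and Junb were higher, and Jun and Egr1 were lower, in all 3 comparisons with DMSO of the same batch, although Egr1 with AMP turned direction when libraries were scaled by their totals alone; Fosl2 was higher with both compounds in batch 2 and was not called in batch 1, and Jund was called in no comparison. A gene was called higher or lower at a Benjamini-Hochberg adjusted p under 0.05 over all genes in edgeR's quasi-likelihood test. With 0.05 mM adenosine 4 of the 8 were higher and 2 lower, where 39.2% of all tested genes were called, 19.6% higher and 19.5% lower. With 0.1 mM adenosine 5 were higher and 2 lower, where 69.4% of all genes were called, 34.9% higher and 34.5% lower. With 0.25 mM AMP the count was again 5 higher and 2 lower, and 65.6% of all genes were called, 33.7% higher and 31.8% lower. With so many genes called, the number of calls among the 8 says little by itself, and the directions and sizes follow gene by gene.

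**Figure D1:**
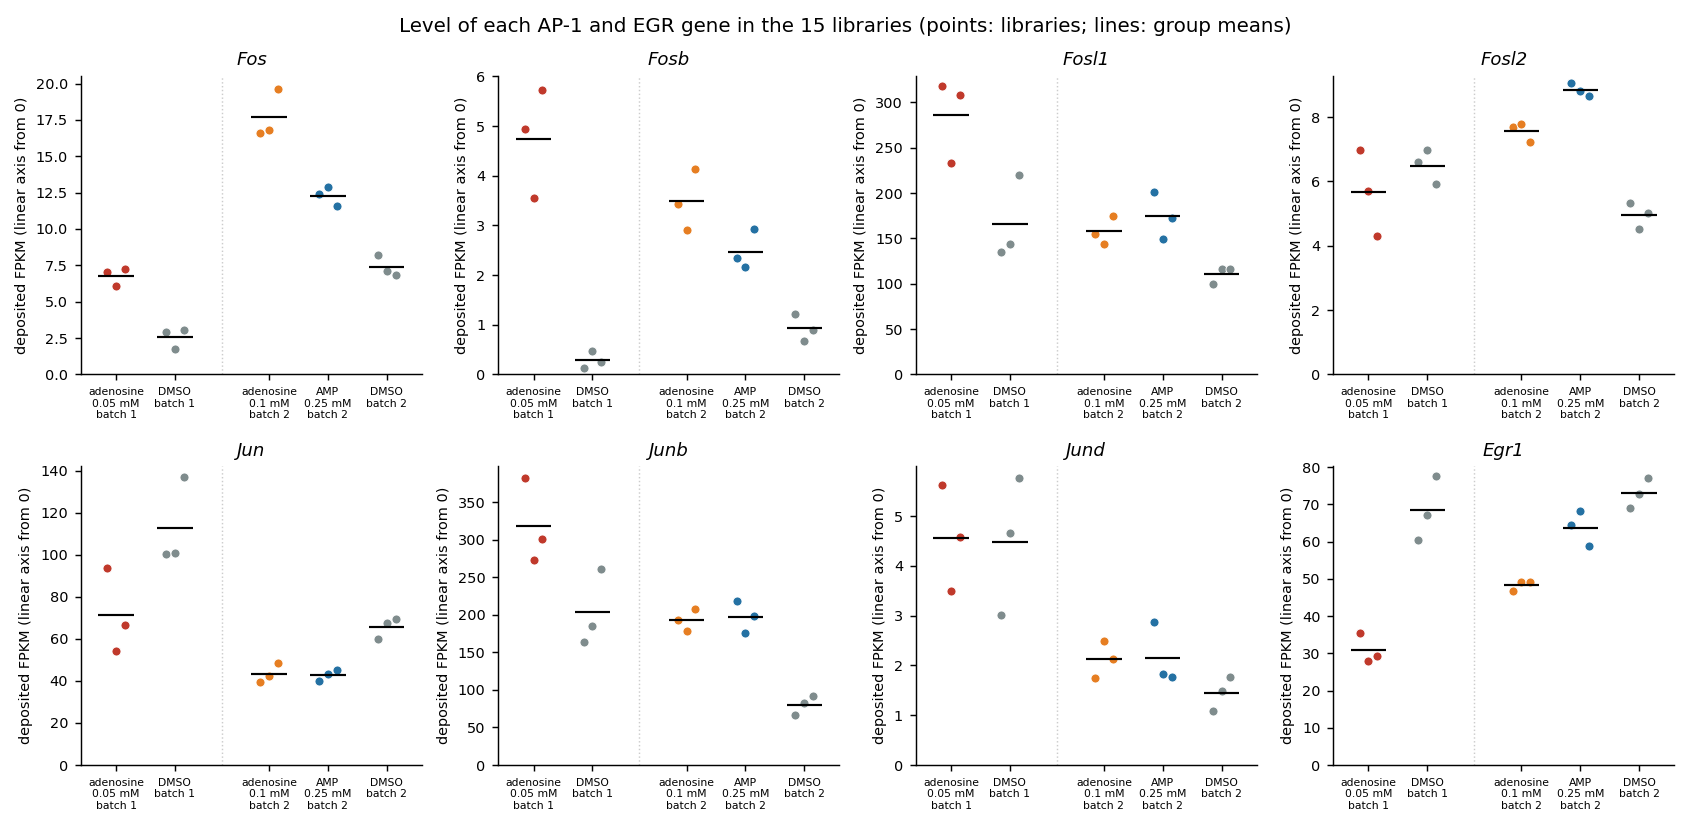
Deposited FPKM of each of the 8 genes (linear axis from 0) in the 15 libraries; each point is a library, each black line the mean of 3 libraries, and the dotted line separates the batches. Fos, Fosb, Fosl1 and Junb sit above DMSO of the same batch in every treated library, and Jun and Egr1 sit below it.

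The region just before the transcription start is shown for 3 of these genes: Fos and Fosb, which had the largest rises in the FOS family with adenosine, and Jun, which fell. The sequences are from RefSeq on GRCm38.p6, 100 bases ending at the base before the annotated start, read 5′ to 3′ on the gene's strand. Capitals mark the match found in a search of both strands for 5 motifs: the CArG box of serum response factor, TGACGT (the core of the cyclic AMP response element), TGANTCA (AP-1), TGACATCA (the variant AP-1 site known from the Jun promoter) and GCGTGGGCG or GCGGGGGCG (EGR). Fos lies on the plus strand at chr12:85473790-85473889, Fosb on the minus strand at chr7:19310046-19310145, and Jun on the minus strand at chr4:95052223-95052322.
Fos: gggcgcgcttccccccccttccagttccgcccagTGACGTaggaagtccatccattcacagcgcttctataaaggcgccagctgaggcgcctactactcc
Fosb: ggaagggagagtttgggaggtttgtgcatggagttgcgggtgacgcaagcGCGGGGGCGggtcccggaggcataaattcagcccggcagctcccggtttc
Jun: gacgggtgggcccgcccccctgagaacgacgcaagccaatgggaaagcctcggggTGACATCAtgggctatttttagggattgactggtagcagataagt
The Fos promoter held TGACGT at 66 to 61 bases before the start, the Fosb promoter held GCGGGGGCG at 50 to 42 bases, and the Jun promoter held TGACATCA at 45 to 38 bases. Promoters from 250 bases before to 50 after the start were read from the promoter table for 6 of the 8 genes, with Fosl1 and Egr1 not included. Over that window Fosl2 also held GCGGGGGCG, at 79 to 71 bases before the RefSeq start, which lies downstream of the Ensembl gene start given below, so that this match falls inside the Ensembl gene. Junb and Jund held none of the 5 motifs in that window. Letters farther from the start were not searched for any gene, so a motif not listed here may lie there. Among 32851 promoters of the same length in the table, 7.51% held TGACGT, 3.47% an EGR match, 3.62% TGACATCA, 7.81% TGANTCA and 1.63% a CArG match. A match is a description of these letters and not evidence of binding.

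Fos, which encodes the founding FOS protein, was higher with both compounds. Its gene lies on chromosome 12 from 85473890 to 85477273 on GRCm38, as do all gene positions below. Batch 1 libraries had 7.04, 6.08 and 7.22 FPKM with 0.05 mM adenosine, against 2.94, 1.72 and 3.07 FPKM with DMSO. Batch 2 libraries had 16.6, 16.8 and 19.6 FPKM with 0.1 mM adenosine and 12.4, 12.9 and 11.6 FPKM with 0.25 mM AMP, against 8.23, 7.11 and 6.82 FPKM with DMSO. No treated library overlapped DMSO of its batch. The log2 fold change was 1.40 with 0.05 mM adenosine (SE 0.26, adjusted p = 0.00116), 1.25 with 0.1 mM adenosine (SE 0.12, adjusted p = 1.72e-07) and 0.73 with AMP (SE 0.12, adjusted p = 7.05e-05). These correspond to 2.64-fold, 2.37-fold and 1.66-fold higher levels. Among all tested genes, treated and DMSO libraries did not overlap in FPKM for 51.5% with 0.05 mM adenosine, 73.5% with 0.1 mM adenosine and 70.5% with AMP.

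Fosb was higher with both compounds, from a low level with DMSO. It encodes a second FOS protein and, through splicing, the truncated form known in brain as ΔFosB, which is stable for days; the counts per gene do not separate the forms. The gene lies on chromosome 7 from 19302721 to 19310045. Batch 1 libraries had 4.94, 3.54 and 5.73 FPKM with adenosine, against 0.136, 0.464 and 0.250 FPKM with DMSO. The batch 1 DMSO values rest on 10, 25 and 14 counts, so the size of the fold change there is less precise than its direction. Batch 2 libraries had 3.43, 2.91 and 4.14 FPKM with adenosine and 2.34, 2.16 and 2.92 FPKM with AMP, against 1.22, 0.668 and 0.894 FPKM with DMSO. All 9 treated libraries were above all DMSO libraries of their batch. The log2 fold change was 4.11 with 0.05 mM adenosine (SE 0.40, adjusted p = 9.24e-06), 1.88 with 0.1 mM adenosine (SE 0.23, adjusted p = 2.98e-06) and 1.40 with AMP (SE 0.24, adjusted p = 9.51e-05). As folds these are 17.2, 3.68 and 2.63. On the log2(FPKM + 1) scale, which understates changes of low genes, the values were 2.15, 1.22 and 0.85, and on that scale Junb, with 1.26 and 1.29 in batch 2, was above Fosb with 0.1 mM adenosine and with AMP.

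Fosl1, which encodes FRA1 and is itself a known AP-1 target, was the most abundant FOS family transcript in every library. It lies on chromosome 19 from 5447703 to 5455945. In batch 1, Fosl1 reached 318, 233 and 308 FPKM with adenosine, against 135, 144 and 219.8 FPKM with DMSO. In batch 2, Fosl1 reached 155, 144 and 175 FPKM with adenosine and 201, 149.6 and 173 FPKM with AMP, against 99.5, 116 and 117 FPKM with DMSO. The groups did not overlap, although in batch 1 the lowest adenosine library (233 FPKM) was close to the highest DMSO library (219.8 FPKM). On the log2 scale, Fosl1 changed by 0.80 with 0.05 mM adenosine (SE 0.18, adjusted p = 0.00408), 0.50 with 0.1 mM adenosine (SE 0.10, adjusted p = 4.61e-04) and 0.66 with AMP (SE 0.10, adjusted p = 4.90e-05). Among Fos, Fosb and Fosl1, Fosl1 had the smallest fold change and the largest difference in mean FPKM in each comparison. Its batch 1 call was lost with limma on unfiltered FPKM (adjusted p = 0.0574).

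Fosl2, which encodes FRA2, behaved differently in the 2 batches. It lies on chromosome 5 from 32135801 to 32157842. Batch 1 libraries had 6.98, 5.71 and 4.30 FPKM with adenosine, against 6.59, 6.96 and 5.91 FPKM with DMSO, and these overlapped. The log2 fold change there was -0.19 (SE 0.17, adjusted p = 0.400), with a 95% interval of -0.52 to 0.14. Batch 2 libraries had 7.68, 7.78 and 7.21 FPKM with adenosine and 9.04, 8.82 and 8.64 FPKM with AMP, against 5.32, 4.52 and 5.02 FPKM with DMSO. Here all treated libraries were above DMSO, with log2 fold changes of 0.60 for adenosine (SE 0.08, adjusted p = 1.06e-05) and 0.84 for AMP (SE 0.08, adjusted p = 4.00e-07).

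Jun and Junb, whose products are the main JUN partners of FOS proteins, moved in opposite directions. Jun encodes the strongest transcriptional activator of the family and is needed for G1 progression in fibroblasts, while JUNB is a weaker activator that can oppose c-JUN and is known to hold back cell division in several cell types. Jun lies on chromosome 4 from 95049034 to 95052222. Its batch 1 libraries had 93.6, 54.3 and 66.8 FPKM with adenosine, against 100.1, 101 and 137 FPKM with DMSO. Its batch 2 libraries had 39.7, 42.2 and 48.6 FPKM with adenosine and 40.0, 43.4 and 45.0 FPKM with AMP, against 60.0, 67.7 and 69.6 FPKM with DMSO. In FPKM every treated library was lower than every DMSO library of its batch, by a narrow margin in batch 1. In CPM, counts scaled by the library total alone, the batch 1 groups overlapped, with 318 CPM in adenosine replicate 1 against 302 and 307 CPM in DMSO replicates 1 and 2. The log2 fold change of Jun was -0.64 with 0.05 mM adenosine (SE 0.19, adjusted p = 0.0154), -0.60 with 0.1 mM adenosine (SE 0.09, adjusted p = 1.27e-05) and -0.62 with AMP (SE 0.09, adjusted p = 1.34e-05). Both batch 2 calls for Jun held under all 15 alternative settings, whereas the batch 1 call held under 9 of 14. It was lost without DMSO replicate 3 (adjusted p = 0.0589), without adenosine replicate 2 (adjusted p = 0.0639), without adenosine replicate 3 (adjusted p = 0.0571), with library totals as the only scaling (log2 fold change -0.45, adjusted p = 0.0558) and with limma on unfiltered FPKM (adjusted p = 0.101). The single exon of Jun shares 232 bases with the antisense gene Junos, and the library method keeps no strand, so reads there cannot be told apart; Junos itself was assigned 4 to 60 counts per batch 1 library, against 3035 or more for Jun.

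Junb was higher in all treated libraries. It lies on chromosome 8 from 84976909 to 84978748, as a single exon. In batch 1, Junb stood at 382, 273 and 300.2 FPKM with adenosine, against 163, 185 and 261 FPKM with DMSO. In batch 2, Junb stood at 192, 178 and 207 FPKM with adenosine and 219, 175 and 198 FPKM with AMP, against 66.6, 82.9 and 91.9 FPKM with DMSO. The batch 1 groups nearly touched, whereas in batch 2 the lowest treated library was far above the highest DMSO library. On the log2 scale, Junb changed by 0.66 with 0.05 mM adenosine (SE 0.17, adjusted p = 0.00968), 1.25 with 0.1 mM adenosine (SE 0.11, adjusted p = 6.07e-08) and 1.30 with AMP (SE 0.11, adjusted p = 6.25e-08). The batch 1 call was lost without adenosine replicate 1 (log2 fold change 0.48, adjusted p = 0.0669) and with limma on unfiltered FPKM (adjusted p = 0.0899).

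Jund, the JUN family member known for constant expression in resting cells and for slowing fibroblast growth, was low and was not called. It lies on chromosome 8 from 70697739 to 70700616. Its exon shares 543 bases with Gm11175 on the opposite strand, which was assigned 0 counts in every batch 1 library. Reads there cannot be told apart by strand, and the effect on the level of Jund was not tested. Batch 1 libraries had 5.62, 3.51 and 4.59 FPKM with adenosine, against 3.02, 4.66 and 5.76 FPKM with DMSO, and the change there was 0.04 on the log2 scale (SE 0.27, adjusted p = 0.924, 95% interval -0.49 to 0.57). Batch 2 libraries had 1.76, 2.48 and 2.13 FPKM with adenosine and 2.86, 1.83 and 1.77 FPKM with AMP, against 1.08, 1.497 and 1.76 FPKM with DMSO. In FPKM adenosine and DMSO overlapped in both batches, and the lowest AMP library only just exceeded the highest DMSO library. In CPM the batch 2 adenosine libraries, at 5.29 to 7.98, did not overlap DMSO, at 2.82 to 4.46. The log2 fold changes in batch 2 were 0.55 with adenosine (SE 0.26, adjusted p = 0.0697) and 0.58 with AMP (SE 0.26, adjusted p = 0.0632). Jund had only 40 to 102 counts per library in batch 2, and with library totals as the only scaling both values passed the threshold (adjusted p = 0.00624 for adenosine and 0.00856 for AMP). Without batch 2 DMSO replicate 3 they passed as well (adjusted p = 0.0462 for adenosine and 0.0435 for AMP), as did adenosine without its replicate 1 (adjusted p = 0.0476) and AMP without its replicate 3 (adjusted p = 0.0451).

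Egr1 was lower with adenosine in both batches, and close to DMSO with AMP. It lies on chromosome 18 from 34859823 to 34864984. In batch 1, Egr1 stood at 35.4, 27.9 and 29.3 FPKM with adenosine, against 60.3, 67.1 and 77.7 FPKM with DMSO. In batch 2, Egr1 stood at 46.9, 49.2 and 49.1 FPKM with adenosine and 64.5, 68.2 and 58.7 FPKM with AMP, against 69.1, 72.8 and 77.2 FPKM with DMSO. The adenosine libraries were well separated from DMSO, while the highest AMP library (68.2 FPKM) was close to the lowest DMSO library (69.1 FPKM), and in CPM the AMP and DMSO libraries overlapped. On the log2 scale, Egr1 changed by -1.14 with 0.05 mM adenosine (SE 0.13, adjusted p = 4.06e-05), -0.60 with 0.1 mM adenosine (SE 0.07, adjusted p = 2.68e-06) and -0.19 with AMP (SE 0.07, adjusted p = 0.0293). Both adenosine calls for Egr1 held under every alternative setting tried. The AMP call held under 9 of 15 and turned direction with library totals as the only scaling (log2 fold change 0.07, adjusted p = 0.434). It was also lost among genes of at least 10 CPM (adjusted p = 0.147) and without DMSO replicate 2 (0.0625), DMSO replicate 3 (0.134), AMP replicate 1 (0.0560) or AMP replicate 3 (0.112), all adjusted p-values.

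**Figure D2:**
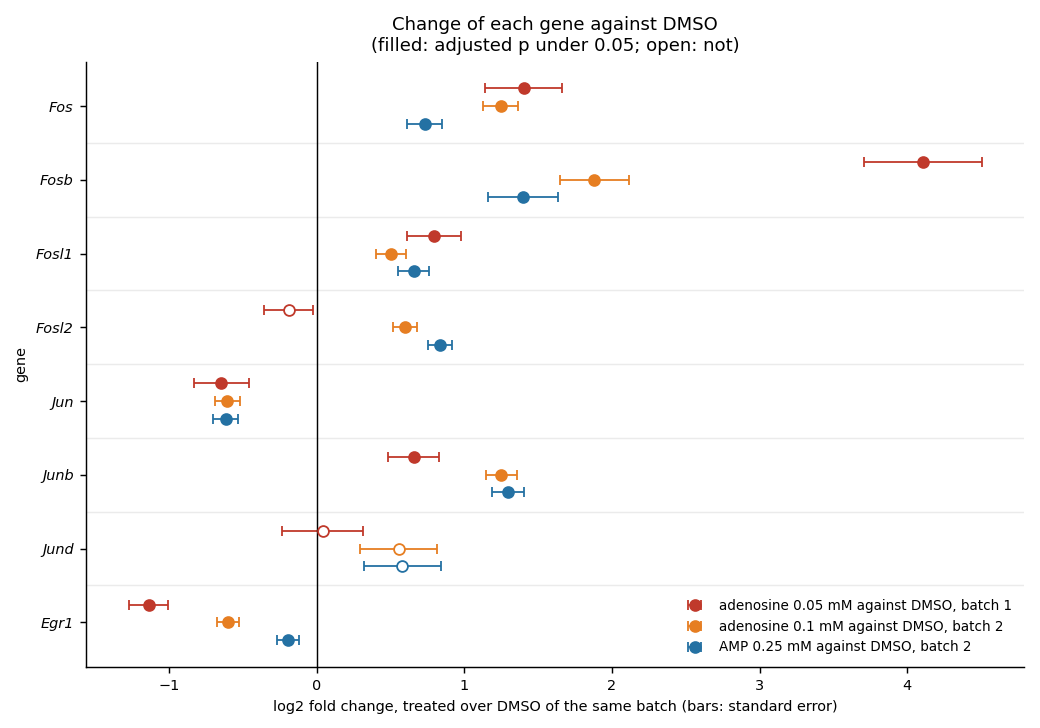
Log2 fold change of each gene against DMSO of the same batch, with its standard error, for 0.05 mM adenosine, 0.1 mM adenosine and 0.25 mM AMP; filled points passed an adjusted p of 0.05. Fosb with 0.05 mM adenosine stands farthest to the right at 4.11, and Jun lies between -0.64 and -0.60 in all 3 comparisons.

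These fold changes depend on how libraries are put on a common scale. The TMM factors used in the fit were 0.864 to 0.947 in the DMSO libraries and 1.01 to 1.11 in the treated libraries, so scaling by library totals alone shifts the median of all genes up by 0.22, 0.32 and 0.28 on the log2 scale for 0.05 mM adenosine, 0.1 mM adenosine and AMP. On that scale Jun was still lower in batch 2, with log2 fold changes of -0.29 with adenosine (adjusted p = 0.0138) and -0.35 with AMP (adjusted p = 0.00526). Egr1 was still lower with adenosine, with -0.94 in batch 1 and -0.29 in batch 2 (adjusted p = 0.00312). The calls of Fos, Fosb, Fosl1 and Junb as higher were the same under both scalings. The split of all called genes moved from 2714 higher and 2706 lower to 4012 higher and 1955 lower for 0.05 mM adenosine, from 4559 and 4508 to 6344 and 2891 for 0.1 mM adenosine, and from 4405 and 4159 to 6037 and 2605 for AMP.

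The make-up of each family is free of that choice, because it is a ratio within a library. In the JUN family, Junb took 79.4%, 82.5% and 80.8% of the summed FPKM with 0.05 mM adenosine, against 61.3%, 63.7% and 64.6% with DMSO. In batch 2 it took 82.3%, 80.0% and 80.3% with adenosine and 83.6%, 79.5% and 80.9% with AMP, against 52.2%, 54.5% and 56.3% with DMSO. Jun took the rest but for Jund: 17.96 ± 1.53% with adenosine and 35.4 ± 1.91% with DMSO in batch 1, and 18.2 ± 1.10% with adenosine, 17.8 ± 2.24% with AMP and 44.7 ± 2.17% with DMSO in batch 2 (SD, n = 3 per group). All 9 treated libraries thus had Junb shares between 79.4% and 83.6%, apart from both DMSO groups, although the DMSO groups of the 2 batches differed from each other. Jund stayed between 0.724% and 1.61% of the family in every library.

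**Figure D3:**
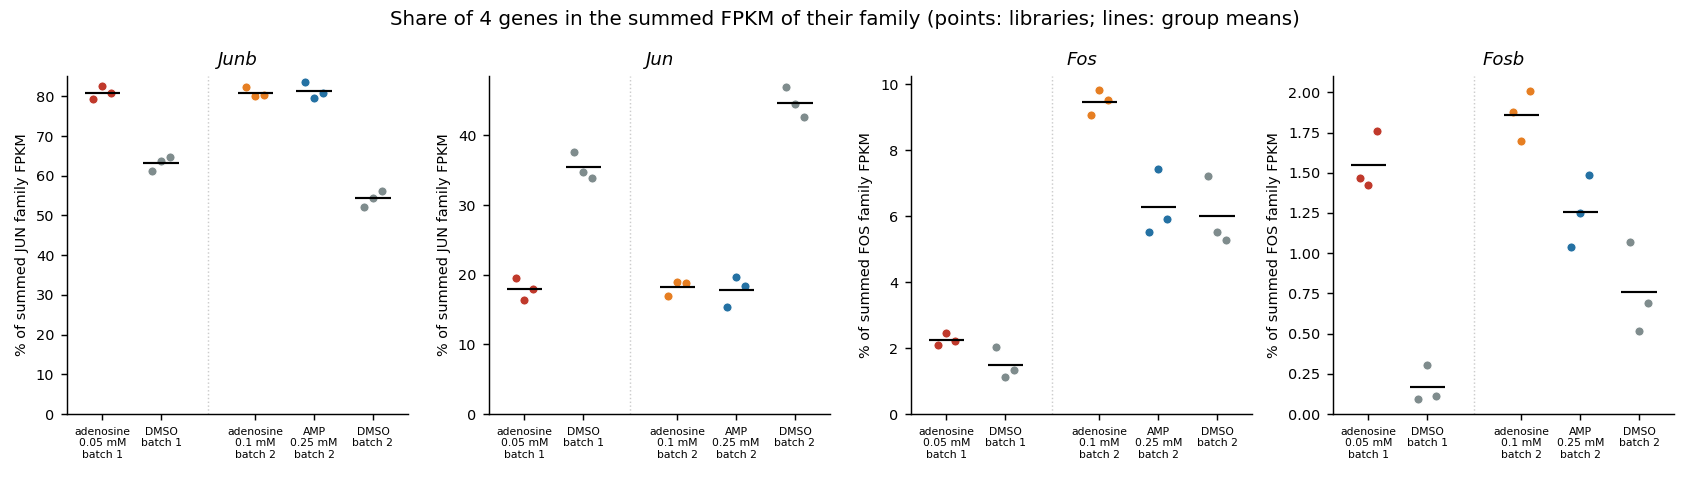
Share of Junb and Jun in the summed FPKM of the JUN family and of Fos and Fosb in that of the FOS family (percent, linear axes from 0); points are libraries and lines the means of 3. Junb lies at 79.4% to 83.6% in the treated libraries and at 52.2% to 64.6% with DMSO.

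In the FOS family, Fosl1 took 94.3 ± 0.444% of the summed FPKM with adenosine and 94.4 ± 1.37% with DMSO in batch 1. In batch 2 it took 84.6 ± 0.561% with adenosine, 88.0 ± 1.601% with AMP and 89.2 ± 1.87% with DMSO. The share of Fosb was 1.55 ± 0.183% with adenosine and 0.169 ± 0.117% with DMSO in batch 1, and 1.86 ± 0.154% with adenosine, 1.26 ± 0.224% with AMP and 0.760 ± 0.282% with DMSO in batch 2. Fosl2 took 1.90 ± 0.512% with adenosine and 3.90 ± 1.14% with DMSO in batch 1, and 4.08 ± 0.530% with adenosine, 4.51 ± 0.537% with AMP and 4.02 ± 0.583% with DMSO in batch 2. With AMP the Fosb shares of 1.04% to 1.49% overlapped those of DMSO, which reached 1.07%. The share of Fos was 9.48 ± 0.373% with adenosine, 6.28 ± 1.01% with AMP and 6.00 ± 1.05% with DMSO in batch 2, so that adenosine stood apart and AMP overlapped DMSO. With 3 libraries against 3, an exact two-sided permutation test cannot give a p below 0.10, so these shares are described and not tested.

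Ordered by FPKM within a group, Junb and Fosl1 led everywhere and Fosb and Jund were at or near the bottom. With 0.05 mM adenosine the order was Junb (318 ± 56.6 FPKM), Fosl1 (286 ± 46.6), Jun (71.6 ± 20.1), Egr1 (30.9 ± 3.99), Fos (6.78 ± 0.608), Fosl2 (5.66 ± 1.34), Fosb (4.74 ± 1.11) and Jund (4.57 ± 1.06 FPKM; SD, n = 3). Junb and Fosl1 overlapped, and so did each pair of neighbours from Fos down. With DMSO in batch 1 the order was Junb (203 ± 51.4 FPKM), Fosl1 (166 ± 46.6), Jun (113 ± 21.2), Egr1 (68.4 ± 8.75), Fosl2 (6.49 ± 0.534), Jund (4.48 ± 1.38), Fos (2.58 ± 0.748) and Fosb (0.283 ± 0.167 FPKM), with overlaps among Junb, Fosl1 and Jun and between Jund and Fos. Fosb was therefore the lowest of the 8 by a clear gap with DMSO and level with Fosl2 and Jund with adenosine.

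In batch 2 the order at the top differed between treated cells and DMSO. With 0.1 mM adenosine it ran Junb (193 ± 14.4 FPKM), Fosl1 (158 ± 15.9), Egr1 (48.4 ± 1.32), Jun (43.5 ± 4.57) and Fos (17.7 ± 1.69), and with AMP Junb (197 ± 21.6), Fosl1 (174 ± 25.6), Egr1 (63.8 ± 4.78), Jun (42.8 ± 2.53) and Fos (12.3 ± 0.654). With DMSO it ran Fosl1 (111 ± 9.86 FPKM), Junb (80.5 ± 12.8), Egr1 (73.1 ± 4.04), Jun (65.8 ± 5.11) and Fos (7.39 ± 0.744). Fosl1 was above Junb in each DMSO library of batch 2, whereas Junb exceeded Fosl1 without overlap with adenosine and with overlap with AMP. Junb, Egr1 and Jun overlapped with their neighbours in the DMSO libraries of batch 2. Batches were deposited as separate tables, so levels are not compared across them.

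The adenosine effect itself was compared between the batches by an interaction term over all 15 libraries, in which 11.9% of 13057 genes were called, 6.27% with a higher value in batch 2 and 5.65% with a lower one. Of the 8 genes, 2 were called higher and 1 lower. Fosb rose less with 0.1 mM adenosine in batch 2 than with 0.05 mM in batch 1, by -2.22 on the log2 scale (SE 0.46, adjusted p = 0.00519), a fold change 4.66 times smaller. The Fosl2 effect was higher in batch 2, by 0.79 (SE 0.19, adjusted p = 0.0111). Egr1 fell less in batch 2, by 0.54 (SE 0.15, adjusted p = 0.0234), a call that was lost on leaving out any of 5 libraries in turn (adjusted p = 0.0506 to 0.0557; batch 1 DMSO replicate 3 and adenosine replicate 2, batch 2 DMSO replicates 1 and 2 and adenosine replicate 3). Junb had a difference of 0.60 (SE 0.22, adjusted p = 0.0860), and it passed with library totals as the only scaling (0.0334), without batch 1 DMSO replicate 1 (0.0269) and without batch 1 adenosine replicate 1 (0.0274). For Jun the difference was 0.04 with a 95% interval of -0.39 to 0.48, for Fos -0.14 (-0.62 to 0.33), for Fosl1 -0.29 (-0.73 to 0.16) and for Jund 0.52 (-0.26 to 1.29). Dose and batch cannot be told apart in these differences.

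AMP is adenosine with a phosphate on its 5′ carbon, and both were compared with the same 3 DMSO libraries of batch 2. Their doses, 0.25 mM and 0.1 mM, differ, so the values stand side by side without a test. The log2 fold changes with AMP and with adenosine were 0.73 and 1.25 for Fos, 1.40 and 1.88 for Fosb, 0.66 and 0.50 for Fosl1, 0.84 and 0.60 for Fosl2, -0.62 and -0.60 for Jun, 1.30 and 1.25 for Junb, 0.58 and 0.55 for Jund, and -0.19 and -0.60 for Egr1.

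The authors' deposited table gives its own fold changes for batch 1, coded there as DMSO over adenosine, so that signs are turned relative to those above. In the authors' deposited table Fosb stands at -4.10 (adjusted p = 9.79e-26), Fos at -1.39 (adjusted p = 4.28e-06), Junb at -0.65 (adjusted p = 0.00154), Jun at 0.65 (adjusted p = 0.00274) and Egr1 at 1.15 (adjusted p = 1.28e-13).

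The wider immediate early programme was read from a list of 28 other genes, and further lists follow. Their counts stand beside 39.2%, 69.4% and 65.6% of all genes called with 0.05 mM adenosine, 0.1 mM adenosine and AMP. The lists share genes, so their counts are not separate. Atf3 is also in the ATF list and Maff in the MAF list. Atf1 is in the ATF and CREB lists, and Nab1 and Nab2 are in both EGR lists. With 0.05 mM adenosine 17 of the 28 were higher, 5 lower and 6 not called, with a median log2 fold change of 0.90 against 0.03 for all genes. With 0.1 mM adenosine 20 were higher and 6 lower (median 1.33, all genes 0.01), and with AMP 20 were higher and 4 lower (median 1.04, all genes 0.01). Btg2, an antiproliferative gene and p53 target, had 212 ± 20.8 CPM with adenosine and 61.6 ± 3.81 CPM with DMSO in batch 1 (CPM, counts scaled by the library total; SD, n = 3), and 236 ± 16.997 CPM with adenosine, 193 ± 24.0 CPM with AMP and 30.1 ± 1.69 CPM with DMSO in batch 2. The genes named next were called in each comparison unless a p is given. Dusp1, a phosphatase that switches off MAP kinases, was higher by log2 fold changes of 1.63, 1.81 and 1.49 with 0.05 mM adenosine, 0.1 mM adenosine and AMP. Trib1, a pseudokinase, was higher by 1.30, 1.81 and 1.64. Cyr61, which encodes a matrix protein and is a target of serum response factor and YAP, was lower, with log2 fold changes of -0.98, -1.15 and -0.42. In CPM, Cyr61 averaged 1637 ± 117 with AMP and 1823 ± 94.9 with DMSO in batch 2, so the size of the fall with AMP depends on the TMM scaling. Ctgf, of the same protein family, fell by 1.00 with 0.05 mM adenosine, had 0.35 with 0.1 mM adenosine (adjusted p = 0.0600) and was higher by 1.02 with AMP. The 3 orphan nuclear receptor genes Nr4a1, Nr4a2 and Nr4a3, named here after their values were seen, were higher in all 3 comparisons: Nr4a1 by 1.51, 1.83 and 1.06, and Nr4a2 by 3.12, 2.98 and 2.64. Nr4a3 averaged under 4 CPM in every group.

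**Figure D4:**
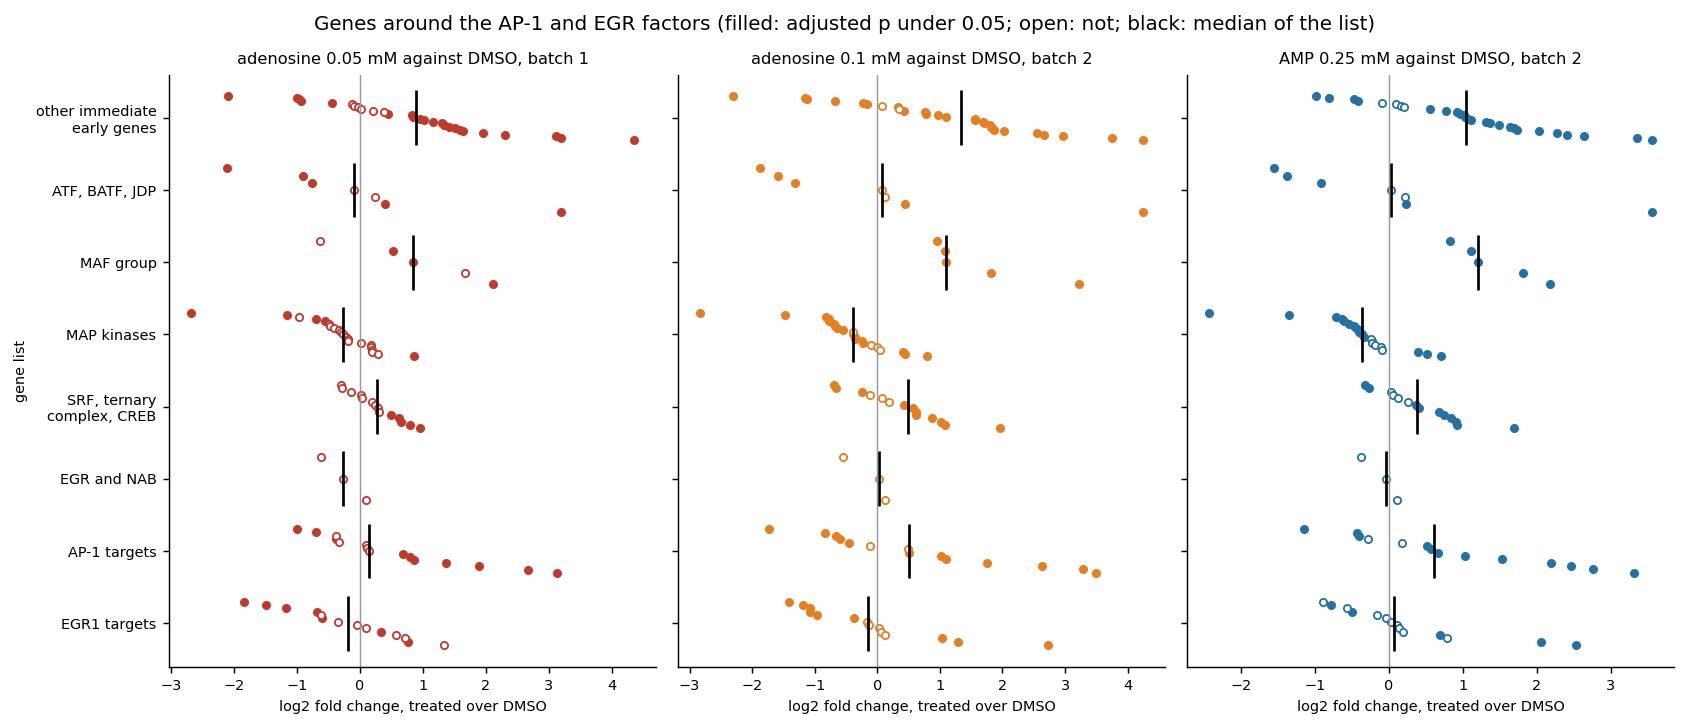
Log2 fold change against DMSO of every tested gene in 8 lists around AP-1 and EGR1, for the 3 comparisons; filled points passed an adjusted p of 0.05 and black bars are list medians. The other immediate early genes have medians of 0.90, 1.33 and 1.04, and those of the MAP kinases are -0.26, -0.38 and -0.37.

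Among other leucine zipper factors, several of which can pair with FOS or JUN proteins, 2 of the 7 tested ATF, BATF and JDP genes were higher and 3 lower in each comparison. Atf3, a stress-induced factor that forms dimers with JUN proteins, had 30.1 ± 4.06 CPM with adenosine and 2.87 ± 0.288 CPM with DMSO in batch 1. In batch 2 Atf3 had 44.0 ± 6.14 CPM with adenosine, 26.6 ± 6.82 CPM with AMP and 1.81 ± 1.08 CPM with DMSO. Atf4, the main effector of the integrated stress response, was lower, with log2 fold changes of -0.76, -1.32 and -0.92 with 0.05 mM adenosine, 0.1 mM adenosine and AMP, and so was Atf5, with -0.91, -1.59 and -1.38. In batch 2 the 5 of 7 called are near the 69.4% and 65.6% of all genes, and the list's median, -0.09, 0.07 and 0.02, was near that of all genes. Of 5 tested MAF group genes, 3 were higher with 0.05 mM adenosine and all 5 with each batch 2 treatment, and none was lower by edgeR or DESeq2 (Maf, named after its value was seen, was lower at an unadjusted p under 0.05 with 0.05 mM adenosine). Mafk, a small MAF protein that pairs with NRF2 and BACH1, had 250.02 ± 40.1 CPM with adenosine and 50.6 ± 3.14 CPM with DMSO in batch 1. In batch 2 Mafk had 131 ± 9.45 CPM with adenosine, 128 ± 15.9 CPM with AMP and 30.1 ± 2.45 CPM with DMSO.

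Upstream of FOS and JUN are the MAP kinases. Of 21 tested, 1 was higher and 4 lower with 0.05 mM adenosine (median -0.26), 3 higher and 14 lower with 0.1 mM adenosine (median -0.38), and 3 higher and 13 lower with AMP (median -0.37); with library totals as the only scaling the 14 became 8. All genes were lower in 34.5% with 0.1 mM adenosine and 31.8% with AMP. Map2k2, which encodes the ERK kinase MEK2, was lower in each comparison, with log2 fold changes of -0.56, -0.77 and -0.72. Of the 14 genes of serum response factor, its ternary complex partners and the CREB group, 5 were higher and none lower with 0.05 mM adenosine (none lower by DESeq2 or at an unadjusted p under 0.05 either), 8 higher and 3 lower with 0.1 mM adenosine, and 8 higher and 2 lower with AMP. The median of that list was 0.27, 0.49 and 0.38. Crtc3, a CREB coactivator, had log2 fold changes of 0.62, 1.97 and 1.69 and was called in each comparison.

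The known targets of AP-1 and EGR1 were counted in the same way. Of the tested AP-1 targets, 7 of 15 were higher and 3 lower with 0.05 mM adenosine, 7 of 14 higher and 5 lower with 0.1 mM adenosine, and 9 of 14 higher and 3 lower with AMP. With all genes at 34.9% higher and 34.5% lower for 0.1 mM adenosine, 7 and 5 of 14 say little about this list. Its median log2 fold change was 0.15, 0.50 and 0.61, and the list holds Fosl1. Hbegf, an EGF receptor ligand, had log2 fold changes of 2.68, 3.29 and 2.76, and Plaur, the urokinase receptor gene, of 1.88, 1.09 and 1.03. Vegfa, an angiogenic growth factor gene, was higher by 1.36, 2.63 and 2.20, and the cytokine gene Lif by 0.86, 1.75 and 2.46. Ccnd1, the G1 cyclin gene, was lower with adenosine, with log2 fold changes of -1.01 and -0.46, and higher with AMP, with 0.52.

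Of 14 EGR1 targets, 2 were higher and 5 lower with 0.05 mM adenosine, 3 higher and 6 lower with 0.1 mM adenosine, and 3 higher and 2 lower with AMP. The 9 of 14 called with 0.1 mM adenosine stand beside 69.4% of all genes, so this count is near the background. Their median log2 fold change was -0.20, -0.15 and 0.06. Id3, an inhibitor of basic helix-loop-helix factors such as MYOD1, had 278 ± 45.9 CPM with adenosine and 873 ± 119 CPM with DMSO in batch 1. In batch 2 Id3 had 271 ± 31.1 CPM with adenosine, 345 ± 11.6 CPM with AMP and 495 ± 47.0 CPM with DMSO. Thbs1, an extracellular matrix glycoprotein gene, was lower, with log2 fold changes of -1.498, -1.08 and -0.50. Of the other EGR genes and their corepressors, 3 of 6 were tested (Egr2, Nab1 and Nab2, named after their values were seen), and edgeR called none. Nab2, which encodes an EGR corepressor, had a log2 fold change of -0.62 with 0.05 mM adenosine, at an unadjusted p under 0.05 in edgeR and called lower by DESeq2, and no other value of the 3 genes passed either. Egr2 had fewer than 4 CPM on average in every group, and its log2 fold changes were -0.26, -0.55 and -0.39 (adjusted p = 0.612, 0.129 and 0.285).

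Genes whose profile was nearest to that of a member were sought over the 15 libraries among 12608 genes, by the root mean square difference in log2 CPM after each library was set against the DMSO mean of its batch. Nearest to Fos were Dusp6 (0.204), Gdpd1 (0.210) and Ifi30 (0.212). Among the genes nearest to Fosl1 were Cdkn1a (0.120) and Kctd11 (0.141), where Cdkn1a encodes the cell cycle inhibitor p21. Nearest to Junb were Ppp1r13l (0.114), Mcrip1 (0.117) and Tbcc (0.132). Nearest to Jun were Mzt2 (0.139), Selenow (0.142) and the ribosomal protein gene Rpl13 (0.149). Nearest to Egr1 were Rem1 (0.135), Fscn1 (0.143) and Nfix (0.174). Nearest to Fosb was Myo15, at 0.497. This measure grows with the size of a change and with counting noise. Fosb had a log2 fold change of 4.11 with 0.05 mM adenosine, and 10, 25 and 14 counts in the batch 1 DMSO libraries. Its larger distance therefore does not show a profile of its own. The closest pair among the 8 genes, Jun and Egr1, differed by 0.307, which put Egr1 at rank 842 among the genes nearest to Jun, and Jun at rank 232 among those nearest to Egr1.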

How the data were processed

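RNA was sequenced from 15 satellite cell libraries made with the Smart-seq2 method and Tn5 tagmentation, per the labels' protocols. The submitters' processing notes name Trim Galore, STAR, Subread and DESeq2 with the mm10 build. The deposited counts per gene of batch 1 were made with featureCounts 1.6.4 per the file headers, while no source used here gives the settings behind the batch 2 counts. The FPKM values are the authors' own, as deposited, and carry the authors' per-library scaling. The batch 1 log2 fold changes coded as DMSO over adenosine were computed by the authors before deposit, and the submitters' notes name DESeq2. Those log2 fold changes and their adjusted p-values are the authors' own, as deposited. Every other batch 1 log2 fold change and p-value given here comes from the edgeR fit or from a stated alternative to it. Batch 2 lists no gene with a total under 101 counts, and 43 of its 13106 lines name no gene (0.0589% of counts) and were left out.

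Counts were fitted with edgeR 4.0.16 (TMM factors, filterByExpr, quasi-likelihood test; R 4.3.3), with batch 1 and batch 2 fitted separately and the difference of adenosine effects as an interaction over 15 libraries. P-values were adjusted by Benjamini-Hochberg over all tested genes. The test was also run on simulated data with few changed genes, as many higher as lower. That setting differs from these data, so it cannot check the number of calls or the choice of scaling. DESeq2 1.42.0, limma 3.58.1 on log2(FPKM + 1), other filters and scalings, a replicate block and leaving out each library were alternatives. Genes outside the 8 were named as at most 3 per list and direction with the smallest adjusted p and a mean of at least 10 CPM, up to 12 per comparison; exceptions are stated, and some genes that meet a naming rule are not reported here. The 8 genes and all lists were chosen with earlier results of these data known. Replicate pairs differed by more than counting noise (chi-square per degree of freedom 3.54 to 34.4 over 15 pairs). That spread may be technical and does not show whether replicates are separate animals or cultures. Each library was treated as 1 replicate.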

Additional observations from a re-analysis of the deposited data

Results flagged for a closer look

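For 3 of the 8 genes the adenosine effect differed between the batches by the interaction test. The difference, batch 2 minus batch 1 on the log2 scale, was -2.22 for Fosb (adjusted p = 0.00519), 0.79 for Fosl2 (adjusted p = 0.0111) and 0.54 for Egr1 (adjusted p = 0.0234). The dose was 0.1 mM in batch 2 and 0.05 mM in batch 1, and dose and batch cannot be told apart. Fosb rests on 10 to 25 counts in the DMSO libraries of batch 1.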

How the results depend on the processing

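Of the 8 genes, Fos and Fosb kept their direction and call in all comparisons with DMSO under every alternative run, as did Egr1 with adenosine and Jun, Junb, Fosl1 and Fosl2 in batch 2. With 0.05 mM adenosine, limma on unfiltered log2(FPKM + 1) called 2 of the 8 higher and 1 lower, library totals called 1 lower, and leaving out 1 library gave 3 to 4 higher and 1 to 2 lower. With 0.1 mM adenosine, leaving out 1 library gave 5 to 6 higher and 2 lower. With AMP, library totals and the filter at 10 CPM each called 1 lower, and leaving out 1 library gave 5 to 6 higher and 1 to 2 lower. For the difference between batches, leaving out 1 library gave 1 to 3 higher and 1 lower. Directions turned with library totals for Fosl2 with 0.05 mM adenosine (0.0035) and Egr1 with AMP (0.073), and without a filter for Jund with 0.05 mM adenosine (-0.0066). On leaving out 1 library, Jund ranged from -0.19 to 0.25 with 0.05 mM adenosine, and the batch difference from -0.28 to 0.082 for Fos and from -0.12 to 0.29 for Jun. The cause was not tested. Over all genes, library totals called 2891 lower with 0.1 mM adenosine (4508 with TMM), 2605 with AMP (4159) and 335 for the batch difference (738). For the batch difference, leaving out 1 library brought the count of higher genes to 523 at the lowest and of lower genes to 375. At 10 CPM or more, Fosb and Jund were not tested in batch 2. Deviations of same-numbered libraries correlated at -0.202 to 0.240 in batch 1, at 0.151 to 0.331 between adenosine and DMSO in batch 2, and at 0.0149 to 0.260 between AMP and DMSO. Every same-numbered pair was over 0.1, the threshold of the check, for 0.1 mM adenosine against DMSO, and not for the others. The batch 2 median was 0.225 for the same number and -0.128 for different numbers. Deviations were taken from the mean of each group of 3, so these medians are not independent of each other. Adenosine replicate 3 and AMP replicate 1, with different numbers, correlated at 0.250. The check therefore cannot show whether the numbers pair the libraries. The fit with the replicate block called 4 of the 8 higher and 2 lower with 0.05 mM adenosine, 5 and 2 with 0.1 mM adenosine and with AMP, and 2 and 1 for the batch difference, as without it (Jun with 0.05 mM adenosine -0.67, adjusted p = 0.0127). Low counts limit the precision for Jund in batch 2 and for Fosb with DMSO in batch 1.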
